A study of Angelica pubescens with 12 samples.

Results

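Fasciclin-like arabinogalactan proteins (FLA) are described here in roots of Angelica pubescens, an umbellifer whose dried root is used as a drug. The unigenes described are 4 of 67432, the assembled transcript sequences of the study, and they were picked by identifier from earlier results of these libraries. Their best Swiss-Prot matches are the Arabidopsis proteins FLA1 (TRINITY_DN9433_c0_g1_i1_4), FLA2 (TRINITY_DN26520_c0_g1_i1_4), FLA8 (TRINITY_DN14692_c0_g1_i1_2) and FLA17 (TRINITY_DN23931_c0_g4_i1_3). The study sequenced RNA of roots aged 2 years from 4 producing areas, Chongqing, Gansu, Hubei and Shanxi, with 3 libraries per area and 19920182 to 23319714 counts per library. It asked whether the ecological setting of a producing area goes with differences in transcripts, and no genotype, treatment or control group is given. The labels do not state that the 3 libraries of an area are separate plants. P-values therefore speak of the spread among these libraries alone, and that spread may be technical.

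Fasciclin-like proteins are secreted glycoproteins that carry fasciclin domains, a fold found in cell adhesion proteins, next to stretches decorated with arabinogalactan sugar chains. Many are held on the outer face of the plasma membrane by a glycosylphosphatidylinositol (GPI) anchor, at the boundary between the cell and its wall. In Arabidopsis, members of the family are known for roles in root growth, in shoot regeneration and in the cellulose-rich walls of stems.

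The annotation placed all 4 unigenes in the family, each with a Pfam fasciclin domain and each with a carrot protein as its best match in the NR protein database. For FLA1, FLA2 and FLA8 the carrot match bears the same number, whereas the FLA17 unigene matched carrot FLA15. FLA15 and FLA17 belong in Arabidopsis to a subgroup whose members lack the signal for a GPI anchor. The Gene Ontology terms differ in the same way. FLA1, FLA2 and FLA8 carry the term for a component anchored to the plasma membrane, and FLA17 carries only extracellular region and vacuole. Each unigene was the sole one with its NR match, so the sum of all unigenes of that match held nothing more. By their identifiers, 2 unigenes belong to the assembled gene of FLA2 and 2 to that of FLA8, the described ones included. The assembly component of the FLA17 unigene holds 5. Their neighbours do not share the NR match, and no sum per assembled gene or component was made.

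All 4 had their highest level in Hubei and their second highest in Shanxi. Values are normalised read counts (CPM), scaled to a common library size and not by length. The pattern held without overlap, every Hubei library above every Shanxi library and every Shanxi library above the 6 others, in 4 of 4. Of all 60756 unigenes tested, 3.79% showed it, but the 4 were chosen with these values in view, and nothing is read from the comparison. In bulk tissue, fewer cells of a type and less RNA per cell cannot be told apart.

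FLA1, known in Arabidopsis for a part in lateral root formation and shoot regeneration, stood at 28.8, 27.2 and 27.7 CPM in the 3 Hubei libraries and at 20.2, 18.2 and 18.3 CPM in Shanxi. It stood at 4.16, 3.53 and 3.81 CPM in Chongqing and at 2.19, 2.69 and 2.71 CPM in Gansu. Hubei and Shanxi were close to each other and far from the other areas, and no library of one area overlapped another area. The mean in Hubei was 1.47 times that in Shanxi, 7.27 times that in Chongqing and 11.02 times that in Gansu. As log2 fold changes (± SE of the fit) these were 0.56 ± 0.10, 2.86 ± 0.12 and 3.46 ± 0.12.

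FLA2 stood at 78.4, 75.0 and 73.8 CPM in Hubei and at 21.2, 20.8 and 21.1 CPM in Shanxi. It stood at 8.36, 8.19 and 8.01 CPM in Chongqing and at 4.97, 5.22 and 5.26 CPM in Gansu. The areas formed 4 separate steps, with Hubei standing farther from Shanxi than it did for FLA1. The mean in Hubei was 3.61 times that in Shanxi, 9.26 times that in Chongqing and 14.7 times that in Gansu. The log2 fold changes were 1.85 ± 0.07, 3.21 ± 0.07 and 3.88 ± 0.08. A further unigene, TRINITY_DN20588_c0_g1_i1_2, shares the FLA2 match in Swiss-Prot. With both summed, Hubei exceeded Gansu by 4.27 on the log2 scale in place of 3.88.

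FLA8, also known in Arabidopsis as AGP8, stood at 23.1, 21.5 and 21.3 CPM in Hubei and at 18.1, 16.5 and 16.7 CPM in Shanxi. It stood at 2.83, 2.22 and 2.16 CPM in Chongqing and at 4.14, 4.11 and 3.16 CPM in Gansu. Hubei and Shanxi again lay close together without overlap, and here Chongqing, not Gansu, was the lowest area. The mean in Hubei was 1.28 times that in Shanxi, 9.13 times that in Chongqing and 5.77 times that in Gansu. The log2 fold changes were 0.36 ± 0.13, 3.19 ± 0.15 and 2.53 ± 0.14. Gansu exceeded Chongqing by 0.66 ± 0.15, whereas FLA1 and FLA2 were lower in Gansu than in Chongqing by -0.60 ± 0.13 and -0.67 ± 0.08.

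FLA17, the one without an anchor term, stood at 96.2, 77.9 and 72.6 CPM in Hubei and at 11.9, 9.53 and 13.2 CPM in Shanxi. It stood at 3.77, 3.01 and 3.18 CPM in Chongqing and at 3.17, 3.397 and 2.71 CPM in Gansu. Hubei stood apart from all other areas, and the libraries of Chongqing and Gansu overlapped, the only neighbouring areas to do so among the 4 unigenes. The mean in Hubei was 7.13 times that in Shanxi, 24.8 times that in Chongqing and 26.6 times that in Gansu. The log2 fold changes were 2.83 ± 0.14, 4.63 ± 0.16 and 4.74 ± 0.16. With all 4 unigenes of the FLA17 match summed, Hubei exceeded Shanxi by 2.44, Chongqing by 3.50 and Gansu by 4.05 on the log2 scale. The coefficient of variation of the unigene itself was 15.1% in Hubei and 16.2% in Shanxi. In Hubei it was 2.91% for FLA1, 3.12% for FLA2 and 4.56% for FLA8.

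**Figure D1:**
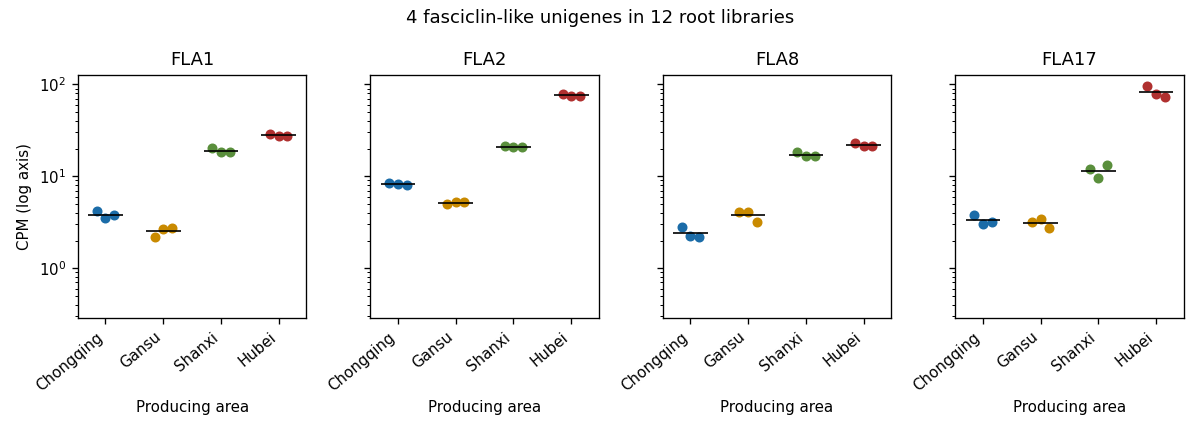
Level of the 4 unigenes (CPM, log axis) in each of the 12 libraries by producing area; points are libraries and black bars are means of 3. Hubei is highest and Shanxi second in all 4 panels, and Hubei stands 7.13 times above Shanxi for FLA17 but 1.28 times above it for FLA8.

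The level in Shanxi as a share of that in Hubei differed among the 4. It was 78.1% for FLA8 and 67.9% for FLA1, but 27.7% for FLA2 and 14.03% for FLA17. In Chongqing and Gansu the share was at most 17.3%, the value of FLA8 in Gansu, and as low as 3.76%, that of FLA17 in Gansu. Over the 12 libraries, Pearson's correlation of log2 levels was highest for FLA2 with FLA17 (0.983). FLA1 with FLA8 (0.952) and FLA1 with FLA2 (0.946) came next and lay close together. The correlation was lowest for FLA8 with FLA17 (0.876). These are descriptions over libraries of 4 areas, which share the step between areas.

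Levels were compared between the 4 per transcript length, with the FPKM values that the authors deposited. In Hubei the order was FLA2 at 58.5 ± 0.441 FPKM (mean ± SD, n = 3), FLA17 at 45.9 ± 5.53, FLA1 at 22.5 ± 0.521 and FLA8 at 17.03 ± 0.337. In Shanxi it was FLA2 at 16.4 ± 0.416 FPKM, FLA1 at 15.4 ± 0.585, FLA8 at 13.4 ± 0.378 and FLA17 at 6.49 ± 0.914. FLA17 therefore stood second in Hubei and last in Shanxi. Within single libraries, FLA17 had 2.46 to 3.00 times the FPKM of FLA8 in Hubei, 0.414 to 0.568 times in Shanxi, 0.545 to 0.613 times in Gansu and 0.952 to 1.07 times in Chongqing. FLA2 had 2.56 to 2.64 times the FPKM of FLA1 in Hubei and 1.002 to 1.10 times in Shanxi, with 1.94 to 2.23 times in Chongqing and 1.84 to 2.19 times in Gansu. Ratios taken within a library do not depend on how libraries are scaled to each other.

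Set against all tested unigenes by mean FPKM, the 4 ranked at percentiles 87.0 (FLA8) to 96.5 (FLA2) in Hubei. In Shanxi they ranked at 72.6 (FLA17) to 87.2 (FLA2). In Gansu they ranked at 38.4 (FLA17) to 62.7 (FLA2), and in Chongqing at 41.9 (FLA17) to 72.9 (FLA2).

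In all, 19 unigenes are named fasciclin-like, and 18 of them have a plant protein as their NR match. The remaining one, TRINITY_DN1941_c0_g1_i1_4, matched a fungal protein of Rhizopus stolonifer. The 18 plant unigenes summed to 427 ± 30.0 FPKM (mean ± SD, n = 3) in Hubei and to 150 ± 5.42 in Shanxi. They summed to 42.4 ± 4.22 FPKM in Chongqing and to 33.7 ± 1.48 in Gansu. The libraries ran from 406 to 462 FPKM in Hubei.
The highest sum outside Hubei was 156 FPKM, in a Shanxi library. The 4 unigenes described made up 30.2% to 35.5% of the sum in every library, so these sums partly repeat the values that chose them. Without the 4, the other 15 unigenes, the fungal match included, summed to 284 ± 24.4 FPKM in Hubei, 98.9 ± 4.80 in Shanxi, 29.5 ± 3.42 in Chongqing and 23.2 ± 1.70 in Gansu. That is the same order of areas, with the libraries of Hubei at 266 FPKM or more and those elsewhere at up to 104 FPKM.

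**Figure D2:**
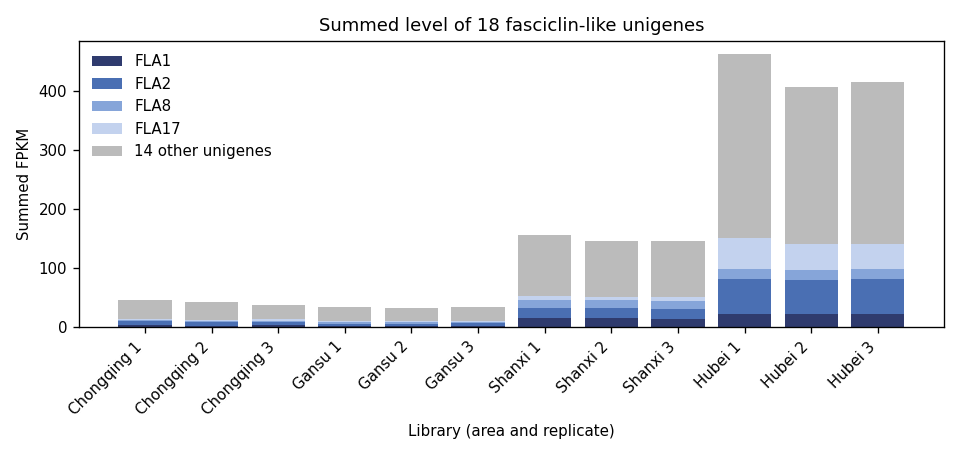
Summed level (FPKM, linear axis from 0) of 18 fasciclin-like unigenes in each library, with FLA1, FLA2, FLA8 and FLA17 in blue and the other 14 in grey. The 3 Hubei bars reach 406 to 462 FPKM, and the blue share stays between 30.2% and 35.5% in all 12 libraries.

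The other 15 fasciclin-like unigenes are not among the 4 picked, but their list too was made with earlier results of these data known. They are not fully separate from the 4. TRINITY_DN23931_c0_g7_i1_3 is of the same assembly component as the FLA17 unigene, and similar unigenes may share reads. All 15, 13 of them with a carrot match, passed the count filter. They were tested with edgeR's quasi-likelihood test, with Benjamini-Hochberg adjustment across the whole table. At an adjusted p under 0.05, 13 of 15 differed between areas, against 70.4% of all tested unigenes. Between Hubei and Chongqing, 12 of the 15 were called (49.6% of all tested unigenes), with 11 higher in Hubei and 1 lower, where 25.9% of all were higher and 23.6% lower. Between Hubei and Gansu, 13 were called (50.5% of all), with 11 higher in Hubei and 2 lower (26.5% and 24.0% of all). Between Hubei and Shanxi, 10 were called (44.6% of all), with 7 higher in Hubei and 3 lower (23.5% and 21.0% of all).

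Shanxi differed from Chongqing in 12 of the 15 (47.8% of all), with 11 higher in Shanxi and 1 lower (24.8% and 23.0% of all). It differed from Gansu in 10 (44.1% of all), with 10 higher in Shanxi and 0 lower (22.9% and 21.2% of all). Gansu and Chongqing differed in 4 of the 15 (38.5% of all), with 2 in each direction (19.1% of all higher in Gansu and 19.4% lower). Matches of FLA21 and FLA11 (TRINITY_DN21055_c1_g4_i3_2 and TRINITY_DN26755_c0_g1_i1_2) were the higher ones, and matches of FLA17 and FLA2 (TRINITY_DN23448_c2_g2_i2_2 and TRINITY_DN20588_c0_g1_i1_2) the lower ones. The median log2 fold change of the 15 was 3.12 for Hubei over Chongqing, 2.27 for Hubei over Gansu and 0.78 for Hubei over Shanxi, against a median within 0.01 of 0 over all tested unigenes. Every Hubei library stood above the 9 others for 9 of the 15, against 14.6% of all tested unigenes. Every Hubei and every Shanxi library stood above all 6 of Chongqing and Gansu for 10 of the 15, against 9.06%. The full order, with Hubei above Shanxi and Shanxi above the rest, held for 8 of the 15, against 3.79%. Of these, TRINITY_DN4539_c0_g1_i1_2 and TRINITY_DN26755_c0_g1_i1_2 did not pass the test of Hubei against Shanxi (edgeR adjusted p = 0.178 and 0.170).

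The 6 of the 15 with the highest mean over the 12 libraries are given first. All 6 were higher in Hubei than in each other area, but Hubei weighs most in that mean, so the ranking itself favours unigenes high in Hubei. Ranked by level in Shanxi, the second FLA4 match (11.9 CPM) and an FLA21 match (8.73 CPM), both described further on, would be among the first 6, and their log2 fold changes of Hubei over Shanxi were -0.50 and -0.71. The most abundant, TRINITY_DN23448_c2_g2_i2_2, matched FLA17 in Swiss-Prot and a carrot FLA15 in NR. This unigene stood at 131, 122 and 111 CPM in Hubei and 25.8, 22.4 and 25.6 CPM in Shanxi. It stood at 13.8, 16.0 and 11.6 CPM in Chongqing and 6.82, 7.45 and 6.62 CPM in Gansu. The areas did not overlap. Hubei exceeded Gansu by 4.13 ± 0.12 on the log2 scale (edgeR adjusted p = 1.85e-11) and Shanxi by 2.30 ± 0.11 (edgeR adjusted p = 2.15e-09).

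FLA7 was represented by a pair of unigenes of 1 assembly component that share their NR match. The first, TRINITY_DN24675_c0_g2_i1_3, stood at 105, 84.8 and 77.4 CPM in Hubei and 17.2, 18.2 and 20.7 CPM in Shanxi. It stood at 4.24, 3.44 and 1.02 CPM in Chongqing and 1.70, 2.64 and 2.47 CPM in Gansu, so that these areas overlapped with each other but not with Hubei or Shanxi. The log2 fold change of Hubei over Gansu was 5.29 ± 0.32 (edgeR adjusted p = 1.67e-08). The second, TRINITY_DN24675_c0_g3_i3_3, gave 4.10 ± 0.45 for the same pair of areas (edgeR adjusted p = 5.28e-06). With counts of both summed, Hubei exceeded Chongqing by 5.06 ± 0.23, Gansu by 4.80 ± 0.22 and Shanxi by 2.32 ± 0.19.

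The second FLA2 match, TRINITY_DN20588_c0_g1_i1_2, stood at 80.4, 69.2 and 70.1 CPM in Hubei, 14.7, 14.3 and 13.4 CPM in Shanxi, 9.26, 8.45 and 7.54 CPM in Chongqing and 2.97, 2.84 and 2.18 CPM in Gansu. Its 4 areas were as clearly stepped as those of the FLA2 unigene described first. Hubei exceeded Gansu by 4.79 ± 0.13 (edgeR adjusted p = 9.08e-12).

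FLA4, called SOS5 in Arabidopsis, acts there with the FEI receptor kinases in the growth of root walls. Its match TRINITY_DN24855_c0_g1_i1_2 stood at 16.2, 11.995 and 13.1 CPM in Hubei and 9.90, 7.71 and 6.47 CPM in Shanxi. The step was smaller than for the unigenes above, with log2 fold changes of 0.78 ± 0.18 over Shanxi (edgeR adjusted p = 0.00318) and 1.93 ± 0.19 over Gansu (edgeR adjusted p = 2.09e-06). The sixth, an FLA17 match of the same assembly component as the one described first (TRINITY_DN23931_c0_g7_i1_3), stood at 16.3, 14.8 and 18.5 CPM in Hubei and at 2.79 to 5.69 CPM in the other 9 libraries. Hubei exceeded Gansu by 2.27 ± 0.16 (edgeR adjusted p = 6.37e-08).

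Not every fasciclin-like unigene was highest in Hubei. Those that follow, picked after their values were seen, include exceptions and others that were highest there. A second FLA4 match, TRINITY_DN15283_c0_g1_i1_3, stood at 13.3, 11.8 and 10.7 CPM in Shanxi and at 9.69, 8.56 and 7.0003 CPM in Hubei. The difference of Hubei from Shanxi was -0.50 ± 0.19 on the log2 scale (edgeR adjusted p = 0.0441), and it no longer passed the threshold with RLE normalization or without any of 5 single libraries. Compared with Gansu, the same unigene was 2.23 ± 0.21 higher in Hubei (edgeR adjusted p = 1.34e-06).

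FLA11 is known in Arabidopsis for the cellulose-rich secondary walls of stems. Its match TRINITY_DN18808_c0_g5_i1_1, whose NR match is a lotus protein, stood at 2.61, 1.96 and 2.41 CPM in Chongqing and at 0.605, 0.0446 and 0.171 CPM in Hubei. Every Chongqing library stood above all 9 others. Hubei differed from Chongqing by -3.08 ± 0.73 (edgeR adjusted p = 0.00319). Its difference from Gansu, -1.95 ± 0.74 (edgeR adjusted p = 0.0423), no longer passed the threshold when only these areas were fitted or without several single libraries. Another FLA11 match, TRINITY_DN26755_c0_g1_i1_2, did the reverse at a similarly low level, with 1.82, 0.892 and 1.195 CPM in Hubei and 3 counts over the Chongqing libraries together. A further one, TRINITY_DN32276_c0_g1_i1_4, was lower in Hubei, at 0.134 to 0.186 CPM, than in Shanxi, at 0.529 to 0.806 CPM, but did not pass the test over all areas (edgeR adjusted p = 0.0783). The last unigenes named, TRINITY_DN26755_c0_g1_i1_2 and TRINITY_DN32276_c0_g1_i1_4, share their NR match. It is a carrot protein named FLA12, and FLA11 is only their Swiss-Prot match. With both summed, Hubei exceeded Chongqing by 1.76 ± 0.51 (edgeR adjusted p = 0.0101), and its differences from Gansu and Shanxi, 0.86 ± 0.48 and 0.19 ± 0.47, did not pass the test.

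A pair of FLA21 matches share their NR match, and the counts assigned to them moved apart. TRINITY_DN22998_c0_g6_i2_3 had 0 counts after rounding in all 3 Hubei libraries and 6.32, 2.88 and 2.91 CPM in Shanxi. With Hubei set at the floor of 3 counts over the area, the counts as assigned were at least 90.5-fold higher in Shanxi. Its deposited FPKM in Hubei was above 0, at 5.84e-53, 7.61e-19 and 4.78e-43. Whether reads that fit it were assigned to a similar unigene was not tested. TRINITY_DN21055_c1_g4_i3_2 stood at 6.94, 3.83 and 5.21 CPM in Hubei and 10.2, 6.61 and 9.43 CPM in Shanxi, with 1 count over the Chongqing libraries together. With both summed, Hubei differed from Shanxi by -1.26 ± 0.45 (edgeR adjusted p = 0.036), and exceeded Chongqing by 4.80 ± 0.69 (edgeR adjusted p = 4.91e-05) and Gansu by 1.70 ± 0.51 (edgeR adjusted p = 0.0121). The FLA9 match, TRINITY_DN4539_c0_g1_i1_2, stood at 7.08, 5.71 and 5.98 CPM in Hubei and 4.26, 3.22 and 3.61 CPM in Shanxi, against at most 0.304 CPM in any library of Chongqing or Gansu. Its difference of Hubei from Shanxi, 0.76 ± 0.43 on the log2 scale, did not pass the test (edgeR adjusted p = 0.178). The rarest, an FLA17 match (TRINITY_DN31008_c0_g1_i1_2), stood at 0.838, 0.580 and 0.939 CPM in Hubei and at no more than 0.179 CPM in any other library.

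**Figure D3:**
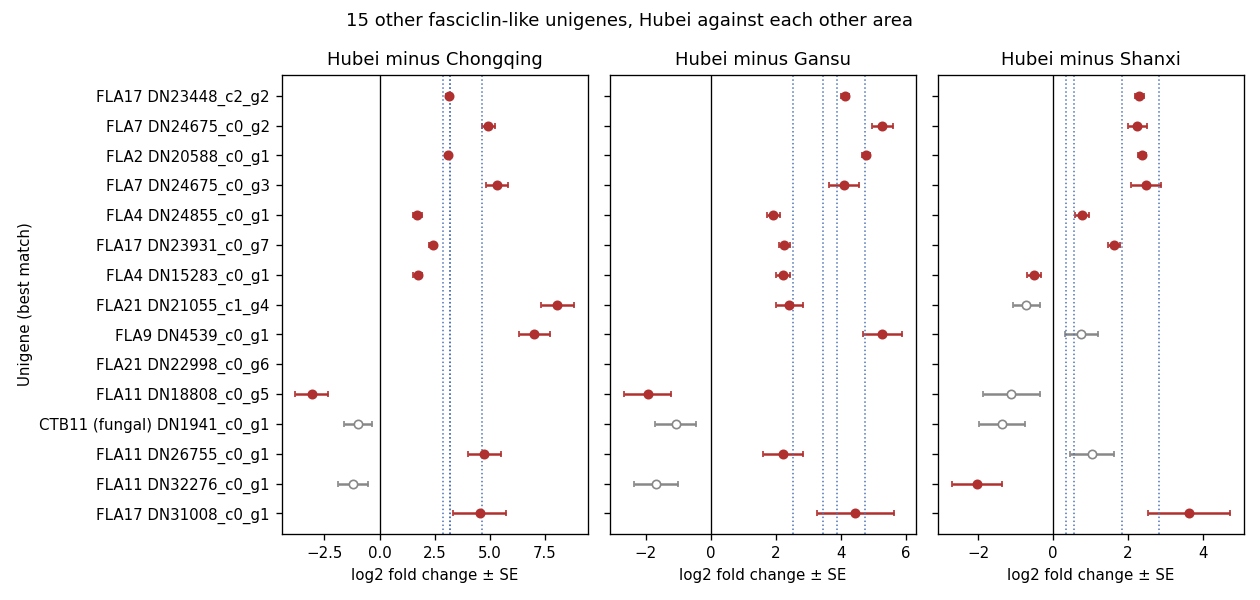
Log2 fold change (± SE) of Hubei over Chongqing, Gansu and Shanxi for the 15 other fasciclin-like unigenes, most abundant at the top. Filled red points passed an edgeR adjusted p under 0.05, open grey points did not, dotted blue lines mark FLA1, FLA2, FLA8 and FLA17, and the FLA21 match with 0 counts in Hubei is left blank; 11, 11 and 7 red points lie to the right of 0 in the panels.

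The fungal match, TRINITY_DN1941_c0_g1_i1_4, did not pass the test in any pair on its own, with 0.128 to 0.652 CPM in Hubei and 0.678 to 1.15 CPM in Shanxi. TRINITY_DN5668_c0_g1_i1_3, which carries a fasciclin domain under another name, shares its NR match. With both summed, Hubei was lower than Chongqing by -1.19 ± 0.42 on the log2 scale (edgeR adjusted p = 0.0289), than Gansu by -1.07 ± 0.42 (edgeR adjusted p = 0.0468) and than Shanxi by -1.29 ± 0.41 (edgeR adjusted p = 0.0208). In all, 522 unigenes had a Rhizopus match, and they held 0.103% to 0.412% of the counts of a library, least in Hubei. A further 9 unigenes carry a fasciclin domain under another name, 7 of them with a Rhizopus match. Of these, 4 could be tested and none passed on its own in a pair that involved Hubei.

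Other groups of wall genes, and further on markers of tissues, were set beside the family. Their counts are to be read against all tested unigenes, of which 25.9% were higher and 23.6% lower in Hubei than in Chongqing, 26.5% and 24.0% than in Gansu, and 23.5% and 21.0% than in Shanxi. A share near these says nothing particular about a group. COBRA proteins are GPI-anchored and guide cellulose deposition. Of 5 tested unigenes, 5 were higher in Hubei than in Chongqing, than in Gansu and than in Shanxi, and 0 were lower. The most abundant, a COBRA match (TRINITY_DN14706_c0_g2_i1_4), stood at 169 ± 16.6 CPM in Hubei and 101 ± 6.35 in Shanxi, 82.3 ± 3.32 in Chongqing and 40.3 ± 4.54 in Gansu (means ± SD, n = 3). A COBRA-like 7 match, TRINITY_DN14767_c0_g1_i1_2, chosen after its values were seen, stood at 193 ± 17.1 CPM in Hubei and at 17.1 to 25.2 CPM on average in the other areas. Between Shanxi and Chongqing the COBRA group split, with 1 unigene higher in Shanxi and 2 lower.

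Cellulose synthase catalytic subunits, which make the wall's cellulose, were more mixed. Of 23 tested, 10 were higher and 3 lower in Hubei than in Chongqing, 12 higher and 5 lower than in Gansu, and 12 higher and 4 lower than in Shanxi. The most abundant, a CESA3 match (TRINITY_DN17109_c0_g1_i4_1), stood at 467 ± 29.9 CPM in Hubei, 267 ± 14.6 in Shanxi, 307 ± 7.45 in Chongqing and 222 ± 15.3 in Gansu. Hubei exceeded Gansu by 1.07 ± 0.07 (edgeR adjusted p = 2.97e-08). CESA3 serves primary walls in Arabidopsis. Matches to the Arabidopsis secondary-wall subunits CESA4 and CESA7 reached at most 1.61 CPM on average in any area.

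Arabinogalactan proteins without a fasciclin domain gave 3 higher and 1 lower of 5 tested in Hubei over Chongqing, 2 higher and 1 lower over Gansu, and 1 higher and 0 lower over Shanxi. The most abundant, AGP20 (TRINITY_DN16028_c0_g1_i1_1), was highest in Gansu at 49.7 ± 2.37 CPM, with 28.2 ± 3.97 in Hubei, 27.7 ± 1.30 in Shanxi and 21.3 ± 0.872 in Chongqing. An AGP30 match, TRINITY_DN19993_c0_g1_i2_3, singled out after its values were seen, had the order of the fasciclin-like unigenes, with 44.3 ± 2.99 CPM in Hubei, 23.4 ± 1.51 in Shanxi, 2.37 ± 0.0784 in Gansu and 1.76 ± 0.327 in Chongqing. AGP30 is a root protein in Arabidopsis. Among 18 tested phytocyanins, a class that includes chimeric arabinogalactan proteins, 11 were higher and 4 lower in Hubei than in Chongqing, 9 higher and 2 lower than in Gansu, and 11 higher and 2 lower than in Shanxi. The most abundant, an early nodulin-like protein 2 match (TRINITY_DN20819_c2_g2_i2_1), was highest in Chongqing, at 499.6 ± 35.0 CPM against 335 ± 29.9 in Hubei.

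The enzymes that build such proteins showed smaller medians. Of 62 tested prolyl hydroxylases and galactosyl- and glucuronosyltransferases of arabinogalactan chains, 31 were higher and 8 lower in Hubei than in Chongqing, 25 higher and 15 lower than in Gansu, and 16 higher and 19 lower than in Shanxi. Their median log2 fold changes were 0.40, 0.18 and -0.11, or -0.07 in the last with unigenes at 0 counts set at their bound. Of 29 tested unigenes of GPI anchor synthesis, 10 were higher and 10 lower in Hubei than in Chongqing, 11 higher and 4 lower than in Gansu, and 6 higher and 7 lower than in Shanxi, the last close to the shares of all tested unigenes. The most abundant of the first group, prolyl 4-hydroxylase 4 (TRINITY_DN20301_c0_g2_i4_4), stood at 129.95 ± 2.78 CPM in Hubei and at 85.8 ± 2.03 in Gansu. The most abundant of the anchor group, a GPI inositol-deacylase (TRINITY_DN14989_c0_g2_i1_1), stood at 41.5 ± 2.55 CPM in Hubei and at 35.6 ± 3.30 in Gansu.

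The FEI kinases, partners of FLA4 in Arabidopsis, had few calls. Of 3 tested, 2 were higher in Hubei than in Gansu and none passed against Chongqing or Shanxi. The most abundant, FEI2 (TRINITY_DN23687_c0_g1_i5_4), stood at 116 ± 7.03 CPM in Hubei, 122 ± 5.70 in Shanxi, 106 ± 3.22 in Chongqing and 90.9 ± 3.68 in Gansu. Expansins loosen growing walls. Of 20 tested, 14 were higher and 3 lower in Hubei than in Chongqing, but 9 were higher and 8 lower than in Gansu, and 6 higher and 7 lower than in Shanxi. The list also holds proteins named expansin-like, whose action on the wall was not examined here. One of these, expansin-like B1 (TRINITY_DN9500_c0_g1_i1_1), was the most abundant of the list. It was highest in Gansu at 77.9 ± 1.93 CPM and stood at 16.4 ± 0.0987 in Hubei.

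**Figure D4:**
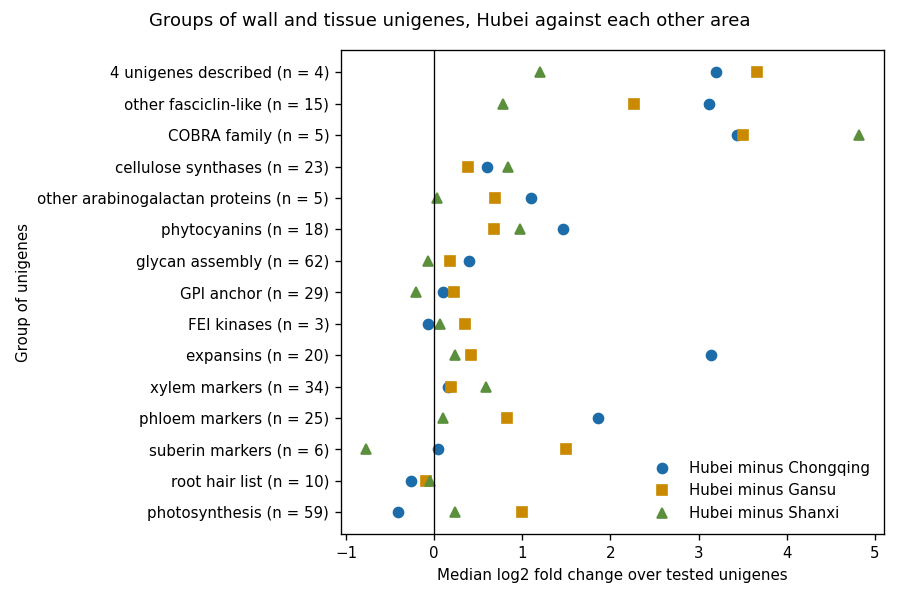
Median log2 fold change of Hubei over Chongqing (circles), Gansu (squares) and Shanxi (triangles) for the unigenes described, the other fasciclin-like unigenes and 13 further groups; n is the number tested, and unigenes at 0 counts in an area are set at their bound. The medians of the other fasciclin-like unigenes lie at 0.78 to 3.12, and that of the COBRA family over Shanxi lies at 4.82.

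Markers of the tissues a root can hold also differed between areas. Xylem and secondary-wall markers summed to 497 to 512 FPKM in Hubei, 309 to 315 in Chongqing, 295 to 303 in Shanxi and 250 to 273 in Gansu, with 14, 17 and 13 of 34 tested unigenes higher in Hubei than in these areas and 7, 3 and 9 lower. The tested unigene of this list with the highest mean CPM was a chitinase-like protein 1 match (TRINITY_DN22578_c5_g4_i1_3), an enzyme-like protein of cellulose assembly also found outside xylem. It stood at 319 ± 17.4 CPM in Hubei and at 79.0 to 121 CPM on average elsewhere. The list did not move as one. Against the direction of most of its called members, its 3 unigenes named for tracheary element differentiation (TED), singled out after their values were seen, were lower in Hubei than in Chongqing. A TED6 match (TRINITY_DN3420_c0_g1_i1_1) had 4.04 ± 0.242 CPM there and 0.285 ± 0.116 in Hubei, a second one (TRINITY_DN1508_c0_g1_i1_1) had 2.65 ± 0.161 CPM there and 0.162 ± 0.0653 in Hubei, and a TED7 match (TRINITY_DN25450_c0_g1_i1_1) had 4.13 ± 0.844 CPM there and 0.444 ± 0.0596 in Hubei. The xylem list had 2 unigenes at 0 counts in Chongqing, 2 in Gansu, 1 in Shanxi and none in Hubei.

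Phloem markers summed to 508 to 522 FPKM in Shanxi, 377 to 391 in Gansu, 253 to 260 in Hubei and 105 to 116 in Chongqing. This order differs from that of the fasciclin-like family, in which Hubei led. Of 25 tested, 19 were higher and 3 lower in Hubei than in Chongqing, 14 higher and 6 lower than in Gansu, and 5 higher and 6 lower than in Shanxi, the last close to the shares of all tested unigenes. The phloem marker with the highest mean CPM, a phloem protein 2-like A1 match (TRINITY_DN21634_c0_g1_i2_4), stood at 279 ± 18.5 CPM in Shanxi and 91.3 ± 8.64 in Hubei. A phloem protein 2-like A1 match (TRINITY_DN6089_c0_g1_i1_2) and a match of the sieve element protein SEOC (TRINITY_DN8896_c1_g1_i1_2) were at 0 counts in Chongqing, and another SEOC match in Gansu.

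Genes of photosynthesis, a sign of green tissue, summed to 702 to 717 FPKM in Chongqing, 551 to 577 in Hubei, 448 to 460 in Shanxi and 287 to 303 in Gansu, with 14, 19 and 30 of 59 tested unigenes higher in Hubei than in Chongqing, Shanxi and Gansu and 25, 9 and 7 lower. Of 63 listed, 1 was at 0 counts in Chongqing, 4 in Hubei, 4 in Shanxi and 8 in Gansu. The one with the highest mean CPM, a Rubisco small subunit (TRINITY_DN19621_c0_g1_i7_1), was 4.82 ± 0.21 higher in Hubei than in Shanxi (edgeR adjusted p = 8.43e-10). Suberin markers lay between 18.3 and 26.5 FPKM and the root hair list between 146 and 183 FPKM in all libraries. Of 6 tested suberin unigenes, 2, 3 and 1 were higher in Hubei than in Chongqing, Gansu and Shanxi and 1, 1 and 3 lower. Of 10 in the root hair list, 3 were higher and 4 lower in each of these comparisons. Both lists are weak evidence of root identity, since the abundant unigenes in them match a lipid acyltransferase outside the suberin pathway (TRINITY_DN14039_c0_g1_i5_3) and the broadly used protein RHD3 (TRINITY_DN22700_c1_g3_i1_1). The part of tissue composition in the differences of the fasciclin-like unigenes was not tested.

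The unigenes whose pattern was most like each of the 4 were found by Pearson's correlation of log2(CPM + 0.5) over the 12 libraries, among 13527 named unigenes with a mean log2 CPM of at least 3. For FLA1 they were the subtilisin-like protease SBT1.7 (r = 0.997), the BURP domain protein BNM2A (0.996) and a BOI-related ubiquitin ligase (0.996). For FLA2 they were an extensin-like protein, the subtilisin-like protease SBT1.8 and a proline-rich 33 kDa extensin-related protein (each 0.997). Extensins are structural glycoproteins of the wall. The SBT1.8 match (TRINITY_DN16246_c0_g1_i1_2) stood at 249.9 ± 9.19 CPM in Hubei, 64.4 ± 2.14 in Shanxi, 25.1 ± 1.81 in Chongqing and 14.1 ± 1.98 in Gansu.

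For FLA8 the nearest were a unigene matching the yeast protein SRO7 (0.997), a mannose-specific lectin-like protein (0.996) and the cytochrome P450 CYP71D313 (0.995). The lectin-like unigene (TRINITY_DN10581_c0_g1_i1_3) stood at 805 ± 58.1 CPM in Hubei and 284 ± 16.7 in Shanxi, against 4.71 ± 0.833 in Gansu and 1.82 ± 0.472 in Chongqing. For FLA17 they were the response regulator-like protein APRR7, a clock component in Arabidopsis (0.998), the transcription factor NAC17 (0.997) and glucomannan 4-beta-mannosyltransferase 2, an enzyme of wall mannan synthesis (0.997). The APRR7 match (TRINITY_DN17238_c0_g1_i6_2) stood at 177 ± 4.90 CPM in Hubei, 75.4 ± 4.91 in Shanxi, 45.5 ± 4.61 in Chongqing and 44.2 ± 1.49 in Gansu. Pearson's correlation takes no account of the size of a step, and some of these unigenes had much smaller steps than FLA17 and FLA8. The NAC17 match stood at 164 ± 5.47 CPM in Hubei and 94.6 ± 3.75 in Gansu. The SRO7 match stood at 51.8 ± 1.92 CPM in Hubei and 29.2 ± 0.754 in Chongqing. Since 3 libraries of 1 area move together, these correlations rest largely on the steps between 4 areas.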

How the data were processed

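The authors' deposited estimated counts per unigene were rounded to whole numbers for testing; their deposited FPKM values, scaled for length and library total, were used for levels between unigenes. A de novo assembly underlies both, per the unigene identifiers in the file headers. The submitters' processing notes name FastQC, Trimmomatic, Bowtie2, featureCounts, RSEM and DESeq2. The sources used here do not describe how reads that fit several similar unigenes were divided, beyond naming these tools. The counts are estimates, and some FPKM values lie just above 0 at 0 counts, such as 7.61e-19 for TRINITY_DN22998_c0_g6_i2_3 in Hubei replicate 2. Values of close paralogs, such as unigenes that match the same FLA protein, depend on that division and are uncertain.

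All 12 libraries entered 1 fit of edgeR 4.0.16 (quasi-likelihood, TMM, filterByExpr) in R 4.3.3, without covariates, which tested 60756 of 67432 unigenes with 8 residual degrees of freedom. CPM used TMM sizes, and an SE was obtained from each fold change and its F value. Calls needed a Benjamini-Hochberg adjusted p under 0.05. Fold changes of the 4 unigenes have no p, since they and the gene lists were chosen with earlier results of these data known. Unigenes named by rule were the 4, the most abundant of each list, the 6 most abundant other fasciclin-like ones and the 3 nearest in pattern. Further fasciclin-like unigenes and single members of the lists were named outside this rule, many of them after their values were seen. Scripts were tested on simulated data. Replicates differed by 4.58 to 9.52 chi-square units per degree of freedom. DESeq2 1.42.0 and limma 3.58.1 were alternatives.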

Additional observations from a re-analysis of the deposited data

How the results depend on the processing

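In the alternatives that kept the unigene as the unit, no tested difference past the threshold changed sign. Differences short of it did: Gansu over Chongqing for FLA17, at -0.11, became 0.01 without Chongqing replicate 1 or without Gansu replicate 3, and 7 differences of 4 other fasciclin-like unigenes, none of them involving Hubei, changed sign without single libraries or, for TRINITY_DN31008_c0_g1_i1_2, with limma. With counts summed per NR match, added after the data were seen, Gansu over Chongqing became -0.12 in place of 0.10 for the fungal match and 0.26 in place of -0.35 for the first FLA7 unigene. The rarer partners of the FLA11 and FLA21 pairs took the sign of the other partner, Hubei over Shanxi at 0.19 in place of -2.03 for TRINITY_DN32276_c0_g1_i1_4, and Hubei over Gansu at 1.70 for the pair of TRINITY_DN22998_c0_g6_i2_3, which itself was lower in Hubei, at 0 counts. The log2 fold changes of Hubei over Gansu were smaller with limma on log2(FPKM + 1), by construction of the pseudocount, at 2.91 for FLA1, 3.53 for FLA2 and 4.06 for FLA17, and that of FLA8 over Chongqing was 2.63. With a pseudocount of 0.1, FLA2 gave 3.79. With counts summed over unigenes of a Swiss-Prot match, an alternative added after the data were seen, FLA2 gave 4.27 and FLA17 4.05. Leaving out 1 library gave 3.36 to 3.51 for FLA1, 3.85 to 3.90 for FLA2, 4.61 to 4.82 for FLA17 and 3.13 to 3.34 for FLA8 over Chongqing. Summed per NR match these ran from 3.38 to 3.51, 3.84 to 3.90, 4.60 to 4.83 and 3.12 to 3.33. Among the other fasciclin-like unigenes, calls without 1 library ran from 12 to 13 for Hubei with Chongqing, 12 to 14 with Gansu and 7 to 11 with Shanxi, from 11 to 12 for Shanxi with Chongqing, 9 to 10 with Gansu, 3 to 6 for Gansu with Chongqing, and 13 to 14 over any area. The FEI kinases higher in Shanxi than in Gansu fell from 2 to 1 with RLE normalization, and the cause was not tested. Deviations of libraries with the same replicate number correlated at -0.134 to 0.116, and those with different numbers at -0.164 to 0.176. No pairing by number was seen, but whether libraries of the same number were handled together was not tested. The replicate block gave 9 calls for Hubei with Shanxi in place of 10, with 12 for Chongqing and 13 for Gansu as without it. The remainder of each NR match without its unigene could not be computed, since each was alone. At 3 counts or fewer per area a fold is limited by depth.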
